A study of Rattus norvegicus with 9 samples.

Results

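Lymphatic endothelial genes were followed in the skin of young and old rats through 6 genes: Prox1, Flt4, Vegfc, Lyve1, Pdpn and Mmrn1. They were chosen by name as genes that mark or direct lymphatic vessels, and all 6 were found among the 23480 gene symbols of the count table. Skin had been taken from male Wistar rats, an outbred albino strain, with 5 young animals of 6 months and 4 old animals of 24 months. Age was the labelled difference between the groups, and no treatment, transgene or mutation was given for either. The body site of the skin was not given in the sources used here. Polyadenylated RNA was sequenced, and the design compared old with young skin.

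Lymphatic capillaries drain fluid, immune cells and lipid from the skin, and their endothelium arises from veins under the transcription factor PROX1. The growth factor VEGFC is released as a precursor, is cut to its active form with the help of CCBE1 and ADAMTS3, and acts on the receptor tyrosine kinase FLT4, also called VEGFR3. LYVE1 is a hyaluronan receptor of the capillary surface, PDPN (podoplanin) is a surface mucin that engages a platelet receptor, and MMRN1 is a secreted multimerin. LYVE1 is also made by tissue macrophages, PDPN by fibroblasts, keratinocytes and some macrophages, and MMRN1 by platelets, so these rows of whole skin can sum several cell types.

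Of the 6 genes, Pdpn rose in old skin and the others did not pass the test. The difference for Pdpn was 1.91-fold. Lyve1 had a larger estimated difference of 2.79-fold, with a wide spread among the old animals. Vegfc was higher in each of the 4 old animals than in any young one, by a narrow margin. Prox1, Flt4 and Mmrn1 overlapped between the ages. Among all 14933 genes tested, 1437 rose in old skin, or 9.62% (edgeR quasi-likelihood test, Benjamini-Hochberg adjusted p under 0.05), against 1 of these 6. Calls in either direction made up 14% of the tested genes and falls 4.41%. The groups did not overlap for 2 of the 6, Pdpn and Vegfc, both higher in old skin. Over all tested genes they did not overlap for 16.5%, with old higher for 10% and lower for 6.51%. The balance of calls depended on scaling, with 1707 rises and 481 falls under upper quartile scaling, 1956 and 312 with library totals alone, and 201 and 169 when libraries were scaled to pan-endothelial markers. The median log2 fold change, old over young, was 0.71 over the 6 genes and -0.05 over all tested genes.

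Total counts, in units of 1000000, ran from 17.3 to 20.2 in the young libraries and from 20.1 to 34.1 in the old ones. Levels are given as CPM, the counts per 1000000 counts of a library, after scaling with the trimmed mean of M values (TMM). They are not divided by transcript length, so they are compared between samples and not between genes. Less RNA per cell and fewer cells of a type cannot be told apart in RNA from whole tissue. The keratinocyte markers Krt5 and Krt14 were abundant in every library, at no less than 1688 and 1498 CPM. Old replicate 3 was the highest or the lowest of the old animals in many of the genes below. A gap test, described below, marked it for Pecam1 and Pf4 among 29 named genes. Many results are given without it as well, but not all, and the ratios to marker scores are not.

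The 250 bases before the RefSeq start site are shown for Pdpn, the gene that rose, for Lyve1, the gene with the largest estimated difference, and for Flt4, whose highest and lowest levels were closest in ratio. The windows come from RefSeq on the GRCr8 build, where 5 of the 6 genes had one and Prox1 was missing. The Pdpn window is chr5:160918960-160919209 on the minus strand, the Lyve1 window is chr1:174410978-174411227 on the minus strand, and the Flt4 window is chr10:34414584-34414833 on the plus strand. Each reads 5′ to 3′ toward the start site. Capitals mark the SOX core ACAAT or ACAAAG, the nuclear receptor half-site AGGTCA and the GC box GGGCGG, on either strand.
Pdpn: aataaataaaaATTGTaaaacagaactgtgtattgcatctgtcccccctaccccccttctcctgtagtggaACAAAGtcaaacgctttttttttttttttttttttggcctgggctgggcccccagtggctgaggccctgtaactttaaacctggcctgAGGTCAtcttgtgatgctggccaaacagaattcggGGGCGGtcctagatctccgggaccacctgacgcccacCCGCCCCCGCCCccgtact
Lyve1: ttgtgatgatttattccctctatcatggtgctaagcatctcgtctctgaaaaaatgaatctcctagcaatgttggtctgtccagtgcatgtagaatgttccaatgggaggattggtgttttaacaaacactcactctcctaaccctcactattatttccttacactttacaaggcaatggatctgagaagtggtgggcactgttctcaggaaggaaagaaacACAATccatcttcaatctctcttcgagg
Flt4: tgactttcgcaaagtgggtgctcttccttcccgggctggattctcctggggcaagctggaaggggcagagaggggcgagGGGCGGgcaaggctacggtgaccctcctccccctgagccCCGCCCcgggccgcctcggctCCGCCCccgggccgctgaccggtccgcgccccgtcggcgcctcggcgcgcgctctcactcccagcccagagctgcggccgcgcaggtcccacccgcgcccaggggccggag

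The 3 windows differ in base composition. GC content was 51.6% for Pdpn, 41.6% for Lyve1 and 76.0% for Flt4, beside a median of 51.2% over 33469 rat promoter windows. The Flt4 window held 28 CpG dinucleotides, the Pdpn window 8 and the Lyve1 window 2. Mmrn1 (GC 45.6%) was on the side of Lyve1 and Vegfc (GC 72.4%) on the side of Flt4. The SOX core ACAAT was found once each for Pdpn and Lyve1, and occurs in 30.0% of all windows. Pdpn held in addition 1 ACAAAG (16.3% of windows), 1 AGGTCA (14.1%) and 3 GC boxes (30.5%), of which a pair lie next to each other. Flt4 held 3 GC boxes and Vegfc 2. The TATA box letters TATAAA, present in 12.9% of windows, were not found in any of the 5. These are matches of letters and say nothing of factor binding.

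Prox1, the transcription factor that sets lymphatic identity, had nearly equal means at both ages. In young replicates 1 to 5 it stood at 1.34, 3.19, 2.47, 3.37 and 3.99 CPM. In old replicates 1 to 4 it stood at 1.32, 1.44, 5.05 and 3.24 CPM. The old animals thus held both the lowest and the highest values of the 9, on either side of nearly all young animals. The means were 2.88 ± 1.01 CPM (SD, n = 5) and 2.76 ± 1.76 CPM (n = 4), with a log2 fold change of -0.05 ± 0.45 (SE; edgeR adjusted p = 0.950). These values rest on 26 to 70 reads per young library and 28 to 174 per old library. Leaving out old replicate 3 moved the log2 fold change to -0.50 (adjusted p = 0.508).

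Flt4, the receptor for VEGFC and VEGFD, had the narrowest range of the 6 as a ratio. Its young levels were 4.91, 5.87, 5.66, 6.43 and 8.33 CPM. Its old levels were 7.18, 6.32, 7.96 and 9.76 CPM. Young replicate 5 lay above 3 of the 4 old animals, and young replicate 4 just above the lowest of them, so the groups overlapped. The mean was 6.24 ± 1.29 CPM in young skin and 7.81 ± 1.46 CPM in old skin (log2 fold change 0.32 ± 0.19, edgeR adjusted p = 0.297).

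Vegfc, the ligand of that receptor, was low in all animals. It was measured at 2.58, 4.56, 3.48, 3.75 and 4.22 CPM in young skin. It was measured at 4.59, 7.14, 5.64 and 5.65 CPM in old skin. The ranges did not overlap, but young replicate 2 and old replicate 1 were almost equal. The estimate was 1.55-fold (log2 fold change 0.63 ± 0.21), with an adjusted p of 0.0721 in edgeR. DESeq2 gave the same log2 fold change of 0.63 with an adjusted p of 0.0284, so the call depends on the tool. Scaling by library totals alone also brought it past the threshold (0.79, adjusted p = 0.0193).

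Lyve1, the hyaluronan receptor, had the largest estimated difference of the 6. Young replicates 1 to 5 had 4.81, 16.0, 5.30, 7.71 and 9.53 CPM. Old replicates 1 to 4 had 10.3, 19.3, 46.1 and 20.9 CPM. Old replicate 3 was more than double any other animal, and young replicate 2 was above old replicate 1, which made the groups overlap. The means were 8.66 ± 4.50 and 24.2 ± 15.4 CPM, and the log2 fold change of 1.48 ± 0.46 had an edgeR adjusted p of 0.0621. The call turned on single libraries and on the tool. The adjusted p was 0.037 without young replicate 2 (log2 fold change 1.82), 0.0295 without old replicate 1 (1.79), 0.150 without old replicate 3 (0.99) and 0.00907 in DESeq2 (1.49).

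Pdpn, the surface mucin podoplanin, rose. Its young levels of 22.5, 27.1, 18.5, 25.0 and 19.2 CPM lay close together. Its old levels were 31.9, 48.7, 52.3 and 39.1 CPM. Every old animal was above every young one. The mean went from 22.5 ± 3.69 to 43.0 ± 9.27 CPM, a log2 fold change of 0.94 ± 0.17 (edgeR adjusted p = 0.00741). Leaving out any 1 animal kept the call, with log2 fold changes of 0.86 to 1.10. It was lost when libraries were scaled to pan-endothelial markers (0.84, adjusted p = 0.412), and scaling to macrophage markers reversed it (-0.84, adjusted p = 0.0134).

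Mmrn1, the secreted multimerin, split the old animals as Prox1 did. Young skin had 9.20, 21.4, 10.7, 14.7 and 18.7 CPM. Old skin had 10.7, 11.5, 53.0 and 28.2 CPM. Old replicates 1 and 2 were among the low young animals and old replicates 3 and 4 above all of the young. The means of 14.9 ± 5.17 and 25.9 ± 19.8 CPM gave a log2 fold change of 0.79 ± 0.47 (edgeR adjusted p = 0.296). Without old replicate 3 it was 0.20 (adjusted p = 0.800).

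**Figure D1:**
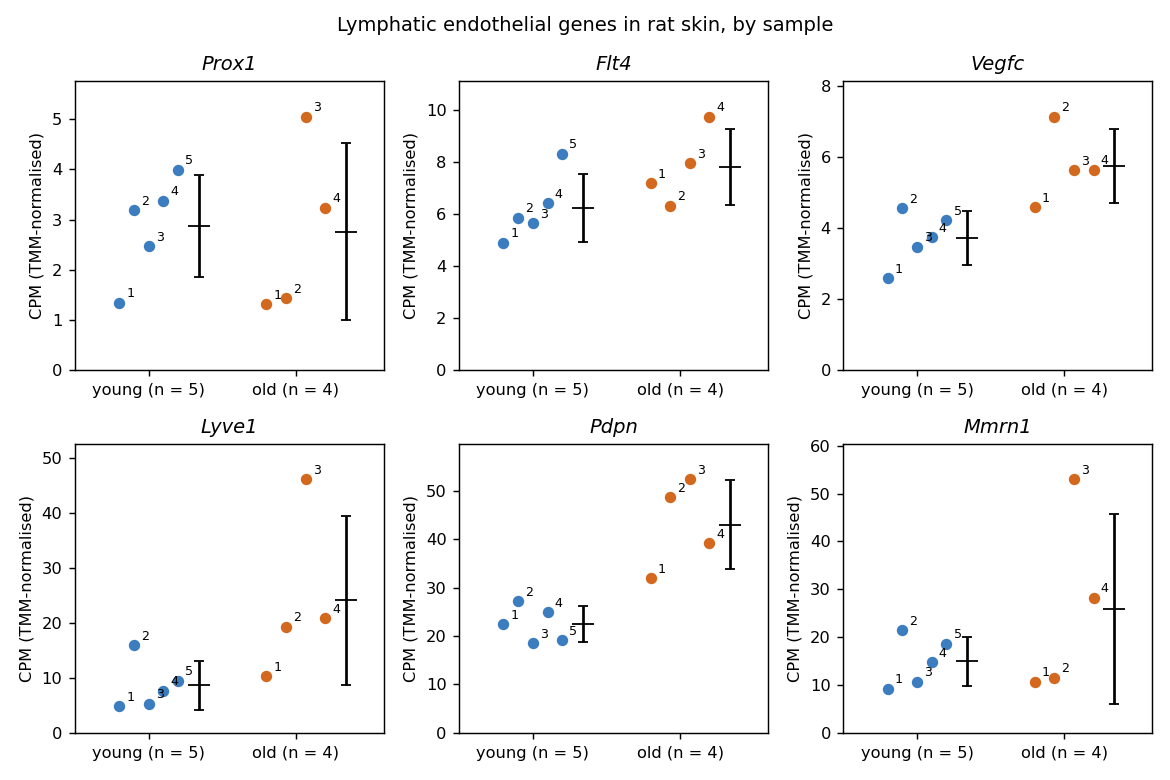
CPM of the 6 genes in each animal (points, numbered by replicate; y axis, TMM-normalised CPM from 0), with the mean and SD of each age as a bar. Pdpn and Vegfc do not overlap between the ages, and old replicate 3 is the highest animal for Prox1, Lyve1, Pdpn and Mmrn1.

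The 6 genes did not vary as 1 group. Correlations of log2 CPM were taken over the 9 animals after the mean of each age was removed. They are descriptions, and the points share libraries and tissue make-up. Prox1 and Mmrn1 went together (r = 0.94, and 0.91 without old replicate 3). Both also followed Reln, reelin, a protein secreted by lymphatic endothelium: r was 0.95 for Prox1 and 0.95 for Mmrn1 (0.92 and 0.92 without old replicate 3). Prox1 and Flt4 gave 0.73, and 0.89 without that animal. Pdpn had lower r to these genes: 0.34 to Prox1, 0.49 to Mmrn1, 0.49 to Reln and -0.22 to Flt4. Without old replicate 3 these were 0.05, 0.22, 0.26 and -0.29. Lyve1 had r of 0.89 to Mmrn1, 0.80 to Prox1, 0.73 to Pdpn and 0.36 to Flt4, which became 0.80, 0.67, 0.62 and 0.40 without that animal. Vegfc had r of 0.64 to Lyve1, 0.45 to Prox1, 0.45 to Pdpn, 0.36 to Mmrn1 and 0.31 to Flt4. Those values were 0.85, 0.60, 0.52, 0.54 and 0.31 without old replicate 3.

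Lyve1 and Pdpn also went with macrophage genes. With Csf1r, the receptor that macrophages need to survive, Lyve1 had r = 0.95 (0.93 without old replicate 3). With the score of 22 macrophage markers, the mean of their log2 CPM, r was 0.94 for Lyve1 and 0.87 for Pdpn. The same score gave 0.75 for Mmrn1, 0.62 for Prox1, 0.57 for Vegfc and 0.14 for Flt4. Without old replicate 3 these became 0.90 for Lyve1, 0.83 for Pdpn, 0.74 for Vegfc, 0.56 for Mmrn1, 0.38 for Prox1 and 0.11 for Flt4. Scores of other lists described below, made the same way, also went with these genes. Smooth muscle and pericyte markers gave 0.55 for Lyve1, 0.48 for Mmrn1 and 0.57 for Prox1. Without old replicate 3 these were 0.84, 0.85 and 0.85. Stroma markers gave 0.62 for Pdpn, and 0.66 without that animal. For Lyve1 and Pdpn the macrophage score had the highest r of all list scores, with or without that animal. Ccl21, the chemokine with which lymphatics guide dendritic cells, went with Lyve1 (r = 0.92) as well as with Mmrn1 (0.84) and Prox1 (0.82). Ccl21 itself did not pass the test, with a log2 fold change of 0.35 ± 0.33 (adjusted p = 0.509). Reln did not either (0.33 ± 0.44, adjusted p = 0.652).

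**Figure D2:**
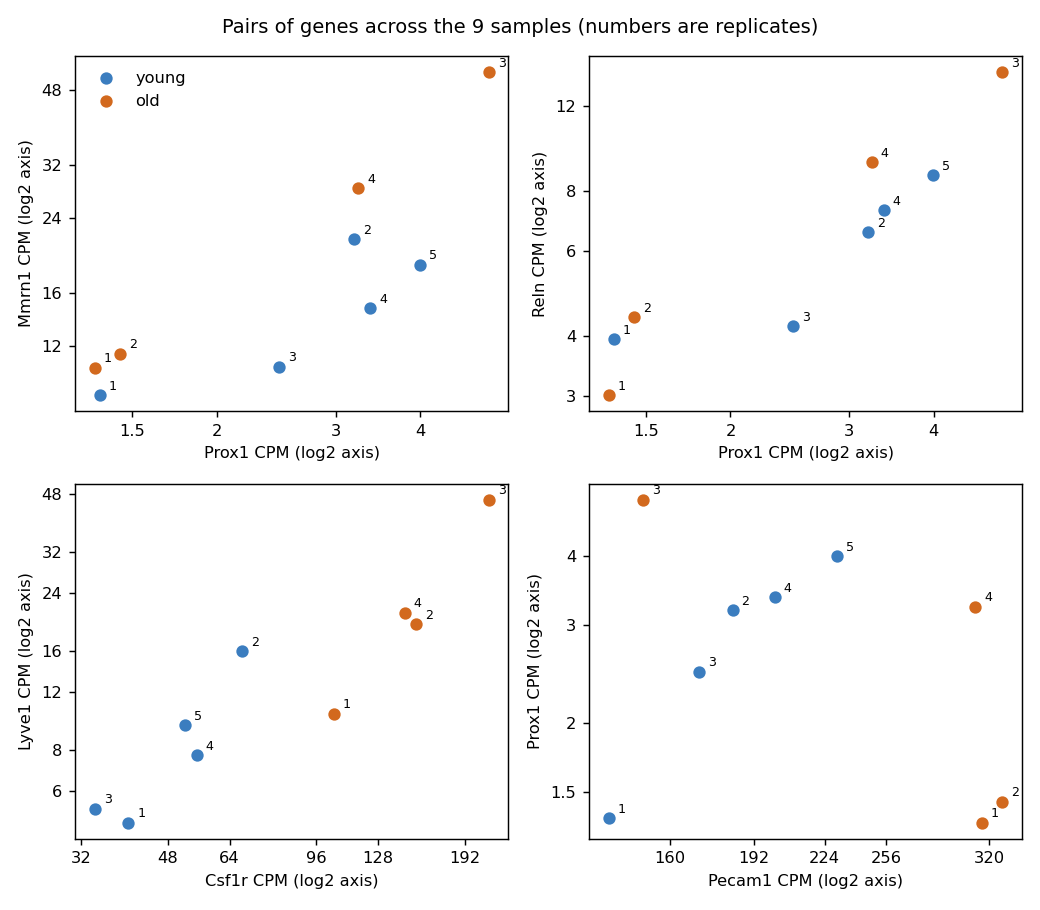
CPM of 1 gene against another in the 9 animals (log2 axes; blue young, orange old, numbered by replicate). Prox1 follows Mmrn1 and Reln in both ages, and Lyve1 follows Csf1r. Prox1 rises with Pecam1 among the young animals but not among the old ones. Old replicate 3 has the most Prox1 of all animals and the lowest Pecam1 of the old ones, at 151 CPM.

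Genes of most like pattern were named for each of the 6, as the 3 with the highest r over the 9 animals among 14088 tested genes with a mean of at least 1 CPM. The age difference was left in this choice. Matches of a gene higher in old skin therefore tend to be higher there too, and their calls are no separate result. For Lyve1 they were Cd68, a macrophage lysosomal protein (r = 0.962), Icoslg (0.960) and Snap23 (0.958). For Pdpn they were Epsti1 (0.991), Pcolce2 (0.982) and C1qb, a chain of complement C1q made by macrophages (0.980). Cd68, Icoslg, Epsti1, Pcolce2 and C1qb rose in old skin, by log2 fold changes of 1.24, 0.69, 1.66, 2.28 and 2.32, whereas Snap23 did not pass the test (0.37). For Vegfc they were P4ha2 (0.980), Gas6 (0.979) and Ackr3 (0.971), of which Ackr3 rose. None of the 3 for Prox1 (Btc, LOC100911172 and Arhgef37), for Flt4 (Cc2d2a, Tns1 and Phactr2) or for Mmrn1 (Tm9sf2, LOC102557213 and Ipmk) passed the test in edgeR. Because the 3 were the highest of 14088 in these same 9 animals, a high r is partly set by the choice. Removing the mean of each age does not undo that choice. With it removed, r was 0.94, 0.93 and 0.92 for the 3 of Lyve1. It was 0.97, 0.92 and 0.91 for Pdpn, and 0.96, 0.95 and 0.93 for Vegfc. For Prox1 it was 0.96, 0.95 and 0.94, for Flt4 0.95, 0.95 and 0.92, and for Mmrn1 0.98, 0.97 and 0.97.

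Differences in balance among the 6 were compared as log2 ratios within each animal. The Lyve1 to Prox1 log2 ratio was 1.77, 2.29, 1.07, 1.17 and 1.24 in young skin and 2.88, 3.67, 3.17 and 2.66 in old skin. Old animals were all above young ones, also the animals with the lowest Prox1. The mean log2 ratio rose from 1.51 ± 0.51 to 3.09 ± 0.44 (two-sided exact permutation p = 0.0159), and the adjusted p over all 15 pairs of genes was 0.119, which does not pass. Without old replicate 3 the difference was 1.56 in place of 1.59. The Prox1 to Mmrn1 log2 ratio, lower in old skin by a mean difference of -0.72, did not overlap either (exact permutation p = 0.0238, adjusted p = 0.119). Lyve1 against Mmrn1 differed by 0.86 (exact permutation p = 0.0238, adjusted p = 0.119). None of the 15 pairs passed after adjustment. The 126 splits of the animals allow no p below 0.00794, so 1 pair alone could not pass after adjustment over 15, however far apart the ages were.

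Among the ligands and processing enzymes of the lymphatic pathway, Vegfd and Svep1 rose without overlap between the ages. Of 9 genes listed, 3 rose and none fell, with a median log2 fold change of 0.67. Over all tested genes the shares were 9.62% for rises and 4.41% for falls in the fit as reported, here and for each list below. Other settings have other shares. Of all 14933 genes, 201 rose with pan-endothelial scaling, 1956 with library totals alone and 1483 with the skeletal muscle covariate. With pan-endothelial scaling the median SE over all genes was 0.43, against 0.20 as reported, so fewer genes of any list could pass. With that scaling 1 of the 9 rose. Vegfd, the other ligand of Flt4, stood at 6.15, 6.96, 3.65, 6.11 and 5.65 CPM in young skin and at 23.8, 19.8, 13.7 and 16.6 CPM in old skin. Each old animal was about double the highest young one or more. The mean was 5.70 ± 1.24 against 18.5 ± 4.32 CPM, a 3.24-fold difference (edgeR log2 fold change 1.69, adjusted p = 0.00182). That call was lost when libraries were scaled to pan-endothelial markers (1.42, adjusted p = 0.0778) or to macrophage markers (0.066, adjusted p = 0.866), and with the macrophage score (1.68, adjusted p = 0.700) or the adipocyte score (1.07, adjusted p = 0.968) as covariate. Svep1, a matrix protein needed for lymphatic vessel remodelling in mice and zebrafish, went from 30.2 ± 6.11 to 106 ± 19.5 CPM, with no overlap (log2 fold change 1.81 ± 0.18, adjusted p = 0.00117). It kept its call with pan-endothelial scaling but lost it with macrophage scaling (0.10, adjusted p = 0.752) and with the macrophage (1.40, adjusted p = 0.700) or adipocyte (1.06, adjusted p = 0.968) covariate. Every old animal had a higher macrophage score and a higher adipocyte score than every young one. With either covariate edgeR called 0 genes in all, so the loss of a call there says nothing about Vegfd or Svep1. The cell source of Vegfd and Svep1 was not tested, and 9 of 14 fibroblast and stroma markers rose as well. Adamts14, a procollagen protease able to process VEGFC, had 4.46 ± 1.76 and 10.2 ± 3.88 CPM (log2 fold change 1.19 ± 0.33, adjusted p = 0.041). Its call was lost when any of 6 animals was left out, all but young replicate 3 and old replicates 2 and 3, with adjusted p up to 0.116.

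The cofactors of VEGFC maturation were low. Ccbe1 was at 2.03 ± 0.88 and 2.23 ± 1.32 CPM (adjusted p = 0.850), and Adamts3 at 1.16 ± 0.84 and 1.00 ± 0.13 CPM (adjusted p = 0.821). Angpt1, the ligand of the receptor TEK, missed the threshold (log2 fold change 0.70 ± 0.21, adjusted p = 0.0541). Vegfa, the main ligand for blood vessels, was at 79.9 ± 21.0 CPM in young skin and 74.4 ± 5.28 in old (adjusted p = 0.750). Of 10 VEGF ligands and receptors together, 2 rose, Vegfd and Nrp1, and none fell in edgeR, with a median log2 fold change of 0.17. At an unadjusted p under 0.05 in edgeR, 3 were higher and 1 lower, beside 2401 and 1985 of all 14933 genes. DESeq2 called 1 fall, beside 1280 of all 14923 genes. With pan-endothelial scaling 0 of the 10 rose, and with library totals alone 3.

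Among 12 receptors and signalling genes, 2 rose and none fell (median log2 fold change 0.45). Itga9, an integrin subunit needed for lymphatic valves in mice, stood at 12.8 ± 1.93 and 21.3 ± 3.58 CPM (log2 fold change 0.74 ± 0.16, adjusted p = 0.014). Ackr3, a decoy receptor for adrenomedullin and CXCL12, stood at 57.0 ± 13.5 and 108 ± 29.6 CPM (0.92 ± 0.22, adjusted p = 0.0236), a call lost without young replicate 3 (adjusted p = 0.0613). Kdr (0.18 ± 0.18, adjusted p = 0.529), Tek (0.48 ± 0.20, adjusted p = 0.146) and Nrp2, the coreceptor of FLT4 (-0.43 ± 0.20, adjusted p = 0.191), were not called. Without young replicate 3 the list had 1 rise, and without young replicate 5 it had 4. It had 6 rises with library totals alone, 0 with pan-endothelial scaling, and 7 rises and 2 falls with the skeletal muscle score as covariate.

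Of 10 lymphatic transcription factors, 0 rose and 0 fell in edgeR, with a median log2 fold change of 0.38. At an unadjusted p under 0.05 in edgeR, 2 were higher and 0 lower, beside 2401 higher and 1985 lower of all 14933 genes. DESeq2 called 1 rise, beside 1932 of all 14923 genes, and limma-voom 0. Sox18, which switches on Prox1 in the embryonic vein of mice, had 16.1 ± 2.45 CPM in young skin and 31.1, 30.8, 8.54 and 22.2 CPM in the old animals. It was lowest in old replicate 3, the animal with the most Prox1. Its log2 fold change was 0.53 ± 0.33 (adjusted p = 0.311), and 0.84 without that animal (adjusted p = 0.0148). Nr2f2, the venous partner of SOX18, gave 0.32 ± 0.22 (adjusted p = 0.376). Without old replicate 3, 3 of the 10 factors rose. In edgeR, upper quartile scaling gave 1 rise, library totals alone 2 and the skeletal muscle covariate 5.

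Surface, junction and secreted genes numbered 14, of which 13 were tested and Stab2 was too low. Of the 13, 3 rose and none fell (median log2 fold change 0.35). They were Mrc1, a mannose receptor also of macrophages (2.48 ± 0.39, adjusted p = 0.00366), the fatty acid transporter Cd36, also of fat cells and macrophages (1.45 ± 0.24, adjusted p = 0.00453), and Tfpi, the tissue factor inhibitor of endothelium (1.00 ± 0.21, adjusted p = 0.0123). Taking the 4 lists as 1 set of 44 tested genes, 8 rose (18.2%) and none fell, beside rises for 9.62% of all tested genes. Of the 44, 34 had an estimate above 0. When genes on the macrophage, stroma, pan-endothelial or platelet lists were set aside, 7 of 38 rose (18.4%), with a median log2 fold change of 0.34. Cd36 is on none of those lists and stayed among the 7. Without old replicate 3, 13 of the 44 rose in place of 8, beside 1487 of all 15037 genes tested there. When libraries were scaled to pan-endothelial markers 2 of the 44 rose and none fell, beside 201 rises among all 14933 genes. When they were scaled to macrophage markers 38 fell and none rose, but 13516 of all 14933 genes fell there too. Other settings gave more rises, 15 with library totals alone (1956 of all genes) and 19 with the skeletal muscle covariate (1483 of all genes). With that covariate 2 of the 44 fell, beside 727 of all genes.

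**Figure D3:**
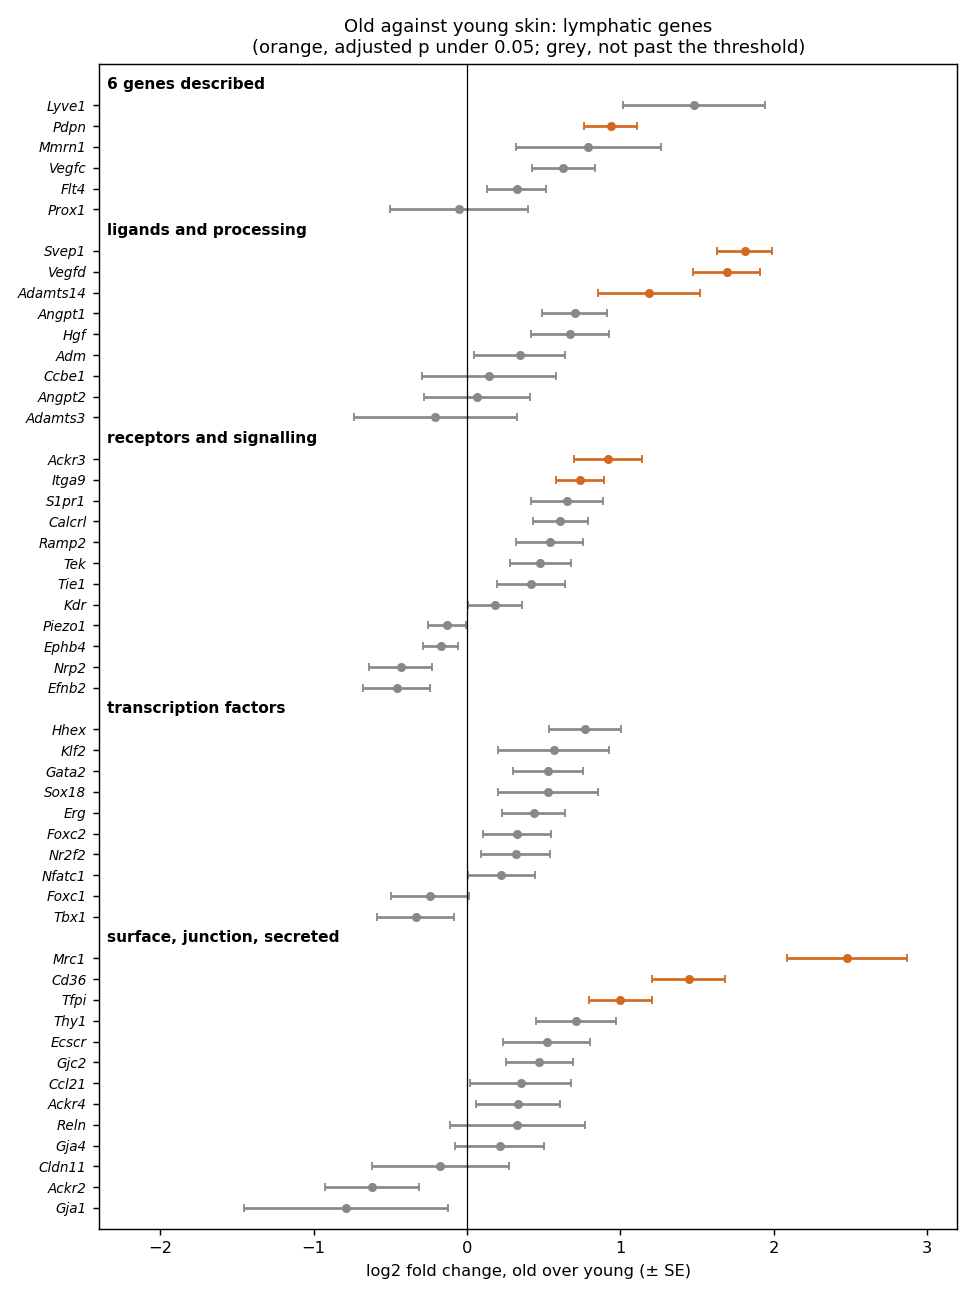
Log2 fold change, old over young, with its SE, for the 6 genes and the 4 lists of other lymphatic genes (orange, past the threshold; grey, not). Pdpn, Svep1, Vegfd, Adamts14, Ackr3, Itga9, Mrc1, Cd36 and Tfpi passed.

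Markers of the cell types that share these genes moved with age. Of 22 macrophage markers, 20 rose and none fell, and 12 rose with pan-endothelial scaling. Their summed level was 358 to 562 CPM in young skin and 965 to 1974 CPM in old skin. Csf1r went from 49.7 ± 13.3 to 154 ± 45.5 CPM. Old replicate 3 had the most Csf1r (214 CPM) and the most Cd68. Of 14 fibroblast and stroma markers, 9 rose and none fell, and 1 rose with pan-endothelial scaling. Their summed levels were 10164 to 14838 CPM in young and 13603 to 17635 CPM in old skin. Of 12 keratinocyte markers, 2 fell, Krt1 and Krt14, and none rose, a count of 0 to 3 falls when 1 animal was left out (0 without old replicate 4). All 11 tested fat cell markers rose.

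Set against the macrophage score, all 6 genes were lower in old skin, by mean log2 differences of -1.93 for Prox1, -1.43 for Flt4, -1.21 for Mmrn1 and -1.12 for Vegfc. The score itself rose with age, so most genes of the table were lower on this scale. With libraries scaled to macrophage markers, 13516 of all 14933 tested genes fell, and the median log2 fold change over all genes was -1.79. The Lyve1 level over the macrophage score, as a log2 ratio, was -0.57 ± 0.37 in young and -0.91 ± 0.48 in old skin, a difference of -0.35. For Pdpn over the macrophage score the difference was -0.83, and over the stroma score -0.08, while Lyve1 over the stroma score differed by 0.40. That last log2 ratio was -4.49, -3.62, -2.39 and -3.36 in old replicates 1 to 4, beside a young mean of -3.86. The difference thus leaned on old replicate 3. With the macrophage score as a covariate, Lyve1 had a log2 fold change of -1.76 ± 0.49 (adjusted p = 0.603) and Pdpn -0.13 ± 0.31 (adjusted p = 0.992). Every old animal had a higher score than every young one, so age and score could hardly be told apart in this fit, and edgeR called 0 genes in all, with 490 higher and 411 lower at an unadjusted p under 0.05. The share of macrophages or stroma in the Lyve1 and Pdpn levels was not tested.

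The endothelial markers gave counts that depended on the processing. Of 12 pan-endothelial markers 0 rose and 0 fell in edgeR, DESeq2 and limma-voom, although all 12 estimates were above 0 (median log2 fold change 0.43). At an unadjusted p under 0.05, 3 were higher and 0 lower in edgeR, beside 2401 and 1985 of all 14933 genes. Pecam1, the endothelial adhesion molecule, was at 140 to 230 CPM in young skin and at 315, 329, 151 and 311 CPM in the old animals. Old replicate 3 was far below the other old animals, and was also lowest of them for Cdh5. Without it Pecam1 passed (log2 fold change 0.81, adjusted p = 0.0138), as did 4 of the 12 markers, against 1 of 12 without young replicate 5. Library totals alone gave 3 rises among the 12 and the skeletal muscle covariate 7. Of 18 blood endothelial markers 1 rose, Cd34, and none fell, and 3 rose without old replicate 3. Cd34 was very low, at 0.32 ± 0.10 CPM in young and 0.82 ± 0.23 CPM in old skin. With a minimum of 1 CPM in at least 4 samples it was not tested, and 0 of 17 rose. The Cd34 call was lost when any of 6 animals was left out (adjusted p up to 0.0598), old replicate 3 among them. Over the pan-endothelial score, the Flt4 log2 ratio was -2.25 ± 0.13 in young and -2.25 ± 0.73 in old skin. The same log2 ratio of Prox1 was -3.41 ± 0.31 and -3.91 ± 1.43. Old replicate 3 was the highest old animal in both. It stood at -1.33 for Flt4, with the other old animals at -3.10 to -2.14. For Prox1 it stood at -1.98, with the others at -5.17 to -3.71.

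Platelet genes were checked because MMRN1 is stored in platelets. Of 12 listed, 6 were tested and 1 rose, Pf4 (2.09 ± 0.35, adjusted p = 0.00445), and 2 rose without old replicate 3. Pf4 was highest in old replicate 3, at 33.3 CPM, as were Csf1r and Cd68. The cell source of Pf4 was not tested. The other tested genes were Selp, Thbs1, Itga2b, Gp1ba and Vwf, of which the platelet genes Itga2b and Gp1ba ran from 1.08 to 3.28 and from 0.471 to 0.930 CPM. The 6 too low to test were Ppbp, Gp9, Gp1bb, Treml1, Clec1b and Gp6, with highest values of 0.116, 0.158, 0.171, 0.290, 0.264 and 0.465 CPM. Of 10 smooth muscle and pericyte markers, 0 rose and 0 fell in edgeR, DESeq2 and limma-voom. At an unadjusted p under 0.05 in edgeR, 3 were higher and 0 lower, beside 2401 and 1985 of all 14933 genes. In edgeR, 1 rose without old replicate 2 and 1 without old replicate 3. With library totals alone 2 rose, and with the skeletal muscle covariate 3. Of 12 skeletal muscle markers 1 rose and 3 fell, with 1 to 3 falls when 1 animal was left out (1 without young replicate 2).

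**Figure D4:**
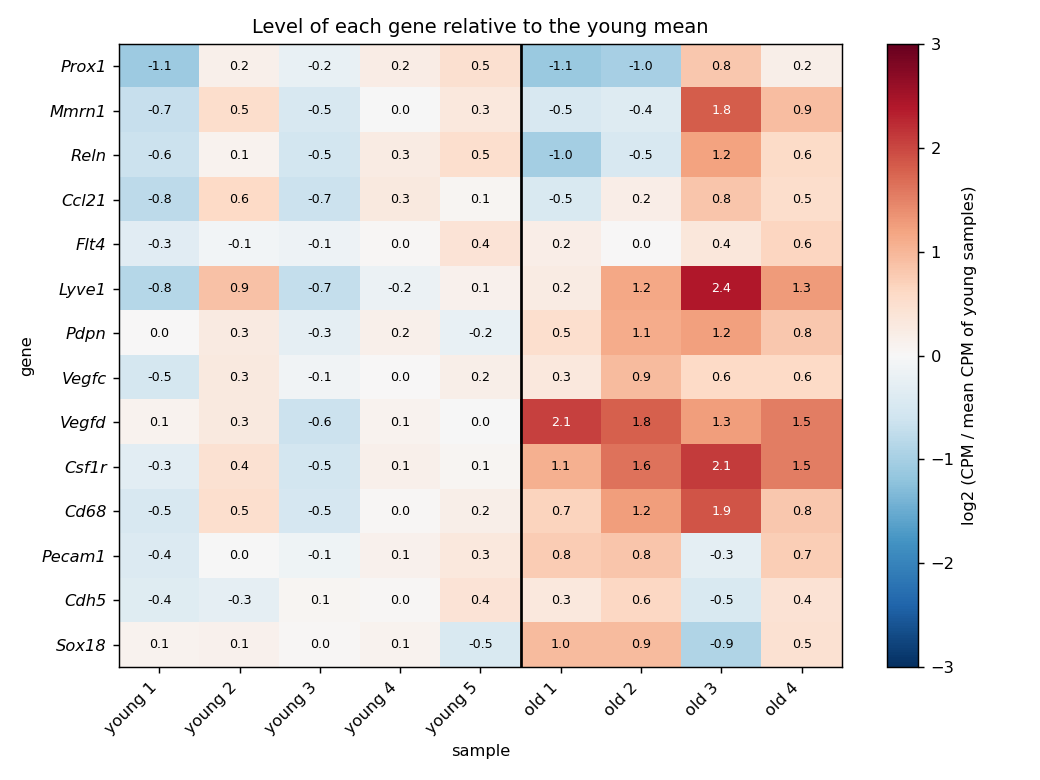
Log2 of CPM over the mean of the young animals, for each gene (rows) and animal (columns; the line parts young from old). Old replicate 3 is high for Prox1, Mmrn1, Reln, Lyve1, Csf1r and Cd68 and low for Pecam1, Cdh5 and Sox18, while Vegfd is high in all 4 old animals.

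**Figure D5:**
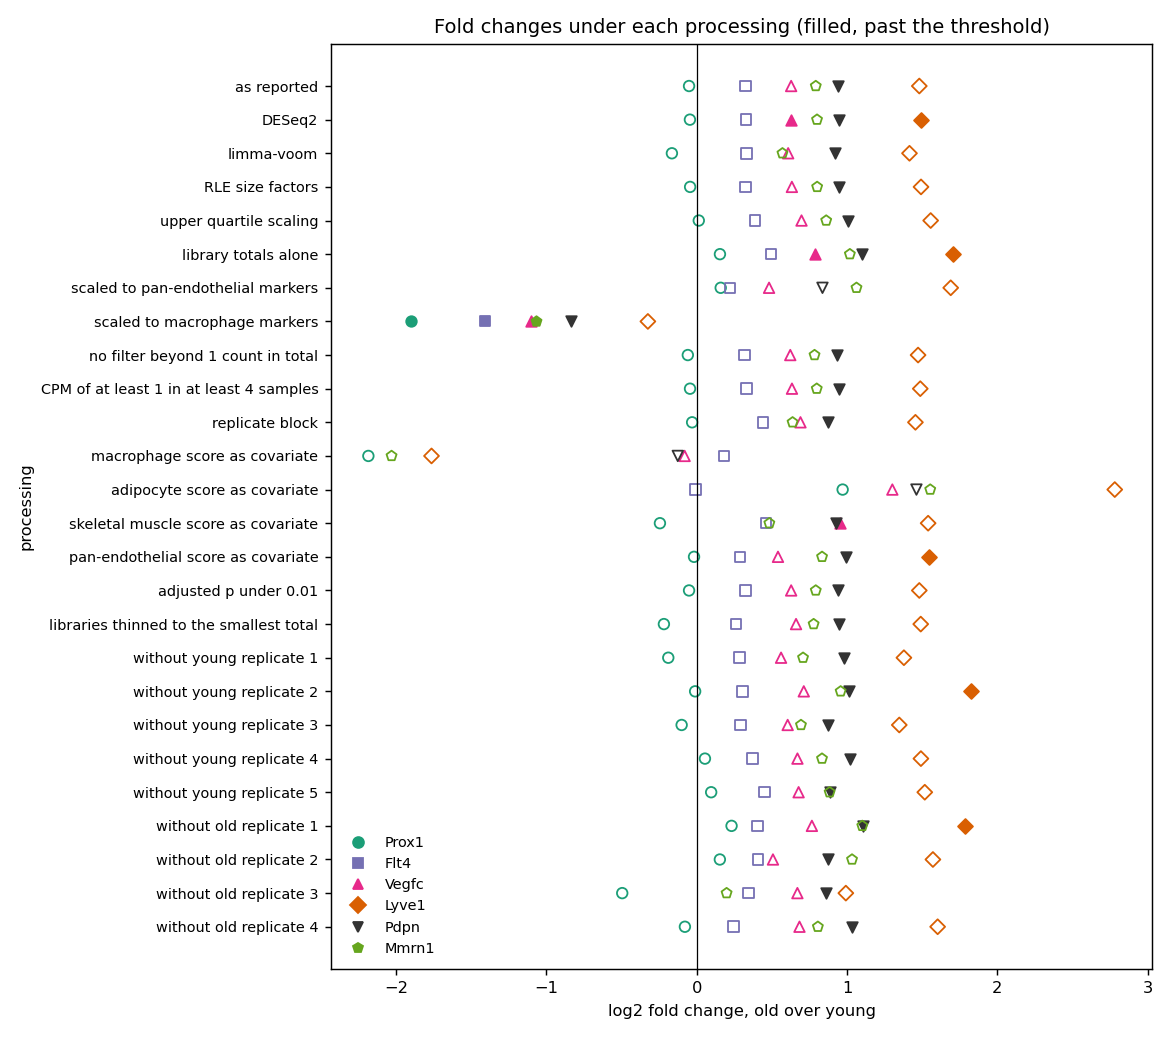
Log2 fold change of the 6 genes, old over young, as reported and under each alternative (filled points, past the threshold). Pdpn stays between 0.84 and 1.46 except with libraries scaled to macrophage markers or with the macrophage score as covariate, where it is below 0.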

How the data were processed

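RNA was sequenced from the skin of 9 rats with a kit that does not mark the strand (TruSeq RNA v2, per the labels' protocols), and reads that overlapping genes or antisense partners share cannot be separated. The authors deposited raw counts of reads by gene symbol. BWA is named, without a version, in the submitters' processing notes. Neither the build nor the annotation nor the assignment of reads is given in the sources used here. The series' design text counts animals, and replicates were taken as different animals.

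Genes passing edgeR's filterByExpr (minimum count 10, minimum total 15) were tested with edgeR's quasi-likelihood test (edgeR 4.0.16, R 4.3.3), TMM scaling and Benjamini-Hochberg adjustment over all 14933 genes, at 0.05. The SE was worked back from the F statistic. Log2 CPM used a prior count of 2. DESeq2 1.42.0, limma-voom (limma 3.58.1), other scalings, filters, covariates, a replicate block and leaving out each animal were the alternatives. List entries were matched by symbol, 7 of 185 by another RefSeq name, and symbols are written in the rat style. The test was tried on simulated data.

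The 6 genes and the lists were chosen with earlier results of these data known. Genes named were the 6, up to 4 called genes per list with the smallest adjusted p, 14 set genes (Ccl21, Reln, Sox18, Nr2f2, Nrp2, Vegfd, Ccbe1, Vegfa, Kdr, Tek, Pecam1, Cdh5, Csf1r, Pf4) and the 3 genes of like pattern for each. Adamts3, Angpt1, Stab2, Krt5, Cd68 and the platelet genes other than Pf4 were named after their values were seen.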

Additional observations from a re-analysis of the deposited data

Results flagged for a closer look

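For 29 named genes, each age was checked for an animal far from the rest of its group (Dixon's gap test), 58 groups in all. This marked 3 of the groups, by 1 young and 1 old animal, where chance gives about 1 in 20 groups. Sox18 in young replicate 5 was low, at 11.8 CPM, with the other young animals at 16.6 to 17.5 CPM. Pecam1 in old replicate 3 was low, at 151 CPM, with the others at 311 to 329 CPM. Pf4 in old replicate 3 was high, at 33.3 CPM, with the others at 12.7 to 14.4 CPM.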

How the results depend on the processing

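Precision is limited by 5 and 4 animals and, for Prox1, by as few as 26 reads in a library. Pdpn, Vegfd, Svep1, Itga9, Mrc1, Cd36, Tfpi, Nrp1, Csf1r and Pf4 kept their calls without any 1 animal, but none of them under every scaling and covariate. The causes of the changes below were not tested.

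Leaving out 1 animal gave log2 fold changes of 0.99 to 1.82 for Lyve1, -0.50 to 0.23 for Prox1, -0.18 to 0.0026 for Vegfa, -0.12 to 0.64 for Reln and -0.31 to 0.36 for Ccbe1, and 236 to 786 falls over all genes. Against 659 falls with all animals, there were 350, 371 and 316 when young replicate 2, 3 or 4 was omitted, and 236 when old replicate 4 was.

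Over all genes, 1437 rose and 659 fell. DESeq2 called 1280 falls, library totals alone 312, and the pan-endothelial covariate 1308. Scaling to pan-endothelial markers gave 201 rises and 169 falls, and an adjusted p under 0.01 gave 702 and 138. The adipocyte covariate gave 0 and 0 in edgeR (514 higher and 160 lower at an unadjusted p under 0.05), as did the macrophage covariate. Scaling to macrophage markers, which moved the median of all genes by -1.75, gave 92 and 13516. Library totals moved it by 0.16 and pan-endothelial scaling by -0.16.

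Lyve1 passed with DESeq2 (1.49), library totals (1.71) and the pan-endothelial covariate (1.55). Vegfc passed with DESeq2 (0.63), library totals (0.79) and the muscle covariate (0.95). Prox1 was 0.013 with upper quartile scaling, 0.15 with library totals and 0.16 with pan-endothelial scaling. Library totals turned Vegfa to 0.068. The adipocyte covariate gave 1.46 for Pdpn (adjusted p = 0.968), 0.97 for Prox1, -0.0076 for Flt4 and 0.15 for Vegfa. The muscle covariate gave -0.25 for Ccbe1 and 0.15 for Vegfa. Kdr and Cdh5 turned to -0.12 and -0.015 with pan-endothelial scaling, and to -0.038 and -0.0076 with that covariate, while Pdpn was 0.84 with that scaling.

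The macrophage covariate turned Lyve1 to -1.76, Pdpn to -0.13, Mmrn1 to -2.03, Vegfc to -0.081, Ccl21 to -1.80, Reln to -2.13, Ccbe1 to -0.69, Ackr3 to -0.22, Mrc1 to -0.18, Csf1r to -0.11, Pf4 to -0.018 and Vegfa to 0.20. Scaling to macrophage markers gave Prox1 -1.90, which passed, and turned Lyve1 to -0.33, Pdpn to -0.84, Flt4 to -1.41, Mmrn1 to -1.07, Vegfc to -1.10, Ccl21 to -1.39, Reln to -1.53, Sox18 to -1.11, Nr2f2 to -1.37, Ccbe1 to -1.77, Kdr to -1.53, Tek to -1.23, Pecam1 to -1.08, Cdh5 to -1.42, Csf1r to -0.13, Adamts14 to -0.53, Itga9 to -1.06, Ackr3 to -0.82, Cd36 to -0.25, Tfpi to -0.72, Nrp1 to -0.95 and Cd34 to -0.44.

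The replicate numbers were not taken as pairs. Deviations of same-numbered animals correlated at 0.673, -0.068, 0.073 and -0.471. Differently numbered animals were not compared in this way, so these values do not settle whether the numbers pair the samples. With the number as a replicate block, 5 of 14 stroma markers and 1154 genes in all rose and 652 fell, Pdpn was 0.87 (adjusted p = 0.0378), and Vegfa turned to 0.019.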
